A study of Homo sapiens with 12 samples.

Results

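A small set of transcripts differed between HNRNPUL1 knockout (HEK UL1 KO) and wild-type (HEK WT) HEK293T cells by a factor that depended on the RNA fraction. The fractions were nucleolar (NO) and cytoplasmic-nuclear (CN). The size of the set depended on the processing, from 0 genes with total counts to 2910 with limma's sample quality weights. The quantity followed is the interaction of genotype and fraction, that is, the log2 ratio of HEK UL1 KO to HEK WT in NO minus the same log2 ratio in CN. It was fitted for every gene in all 12 libraries of the series, 12 of 12, and 37806 of the 61163 listed genes had enough counts to be tested. HEK293T is an immortalised human embryonic kidney line, and the HEK UL1 KO line was made from it with Cas9 and guides to exons 2 and 3 of HNRNPUL1. The number of clones behind the line is not given in the sources used here. An effect of losing hnRNP UL1 therefore cannot be told apart from other differences between the lines. The 4 groups were HEK WT NO, HEK UL1 KO NO, HEK WT CN and HEK UL1 KO CN, with 3 numbered replicates each and no treatment. The CORALL Total RNA-Seq kit was used on RNA from which rRNA had not been removed. The NO and CN counts came as separate tables of raw counts. A positive difference means that the NO to CN ratio of a transcript was larger in HEK UL1 KO than in HEK WT.

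The nucleolus is the nuclear compartment in which RNA polymerase I transcribes the 45S precursor and in which 18S, 5.8S and 28S rRNA are cut out, modified and assembled with ribosomal proteins. Small nucleolar RNAs (snoRNAs) guide much of that modification, and many of them are released from the introns of host genes. hnRNP UL1 is a nuclear RNA-binding protein with known roles in transcription, mRNA metabolism and DNA repair. A change of a transcript that is alike in every compartment gives a difference of 0 here, whatever its size.

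HNRNPUL1 itself fell by a similar factor in both fractions. Its level in CPM after TMM scaling (its counts relative to the scaled total of the library) was 11.7, 16.3 and 7.59 in HEK WT NO, 3.46, 2.97 and 2.95 in HEK UL1 KO NO, 22.7, 19.5 and 23.9 in HEK WT CN, and 5.8, 5.90 and 5.85 in HEK UL1 KO CN. All knockout libraries lay below all wild-type libraries of their fraction. The log2 change was -1.92 in NO and -1.91 in CN, and the difference was -0.002 with a 95% interval of -0.60 to 0.59 (adjusted p = 1). Standard errors (SE) and 95% intervals of differences were derived from the F statistic of each test and are approximate. For HNRNPUL1 the SE was 0.234 in NO, 0.231 in CN and 0.283 for the difference, so this interval may be too narrow. Libraries held between 37141666 and 104040073 counts, and rRNA genes took 55.3% to 65.1% of them in NO and 73.9% to 78.7% in CN. HEK WT NO replicate 3 stood apart, with a TMM factor of 1.708 against 0.897 and 0.823 in the other HEK WT NO libraries, which brought it near the 1.387 to 1.577 of the HEK UL1 KO NO libraries. The TMM factors of HEK WT NO replicates 1 and 2 were thus the lowest of the NO libraries. The median spread of a gene between replicates was 0.24 log2 units in HEK WT NO against 0.10 in HEK UL1 KO CN. Olfactory receptor genes were read more in NO than in CN. The 408 of them summed to 37.4 to 76.0 CPM in the NO libraries and 19.7 to 34.6 CPM in the CN libraries. Whether they are silent in this line was not tested. The 8 markers of this line were detected in all libraries. Of 8 markers of other cell types at most 1 was at 0 in a library, so detection alone does not identify the line. For INA and VIM, which encode intermediate filament proteins, every knockout library lay below every wild-type library of its fraction. For KRT18 and LHX1 every knockout library lay above every wild-type library of its fraction. DBN1, NEFM and NEFL overlapped between genotypes in both fractions. PAX2 overlapped in NO and was higher in every knockout library in CN. Over all tested genes the genotypes did not overlap for 19.7% in NO and 43.9% in CN.

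The knockout effect differed between fractions for few genes. Of 37806 genes, 43 passed an adjusted p of 0.05, which is 0.114% of those tested; 32 (0.0846%) had a higher and 11 (0.0291%) a lower NO to CN ratio in HEK UL1 KO. In the same fit 1744 genes (4.61%) differed between genotypes in NO and 4217 (11.2%) in CN. The difference between those counts is not itself a test. Those counts rest on single libraries. With each library left out in turn they ran from 363 (without HEK WT NO replicate 1) to 10222 in NO and from 1453 (without HEK UL1 KO CN replicate 3) to 7353 in CN, and both highest values, which turn their order, came without HEK WT NO replicate 3. At an unadjusted p of 0.05, 491 genes (1.3%) were higher and 763 (2.02%) lower, 3.32% in all. Across all tested genes the median difference was -0.06, and 55.9% of the values were negative. The scale of the libraries shifted all genes together, and the median over all genes ran from -0.17 with TMM within each fraction to 0.16 with total counts outside rRNA. The number called moved with single libraries: it was 28 without HEK UL1 KO NO replicate 1, 25 without HEK WT CN replicate 1, 27 without HEK UL1 KO CN replicate 1 and 26 without HEK UL1 KO CN replicate 2. It was 0 by edgeR when libraries were scaled by their total counts, where 461 genes, all 43 among them, had an unadjusted p under 0.05 and the 43 kept their direction. It was 2910 with limma's sample quality weights, which kept 42 of the 43 and gave HEK WT NO replicate 1 a weight of 6.12 and HEK UL1 KO NO replicate 1 a weight of 3.39, against 0.159 to 0.604 for the other NO libraries.

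The called genes shared a shape that was not particular to them. In 42 of 43 the knockout effect was smaller in NO than in CN, and in 39 it had the same sign in both. Among all genes that passed the test in CN, 65 fell by at least 3 log2 units and 119 rose by at least 3. The effect was smaller in NO for all 65 and all 119, of which 21 and 9 were called in the interaction. The 32 genes with a higher NO to CN ratio all fell in CN, with a median log2 change of -3.63, and had a median of -0.97 in NO, where 18 of them fell by the test and 14 were not called. Over all tested genes, 6.41% fell and 4.74% rose in CN, and 2.99% fell and 1.62% rose in NO. Of the 11 genes with a lower ratio, 10 rose in CN and 8 rose in NO, and their medians were 4.18 in CN and 1.5 in NO. The exception to the smaller effect in NO was LOC102724624. Leaving out HEK WT NO replicate 1 or HEK UL1 KO NO replicate 1 brought the number of the 32 that fell in NO to 14, leaving out HEK WT NO replicate 3 brought it to 21, and it was 6 with total counts. These medians belong to genes that were selected by the difference and describe that selection.

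**Figure D1:**
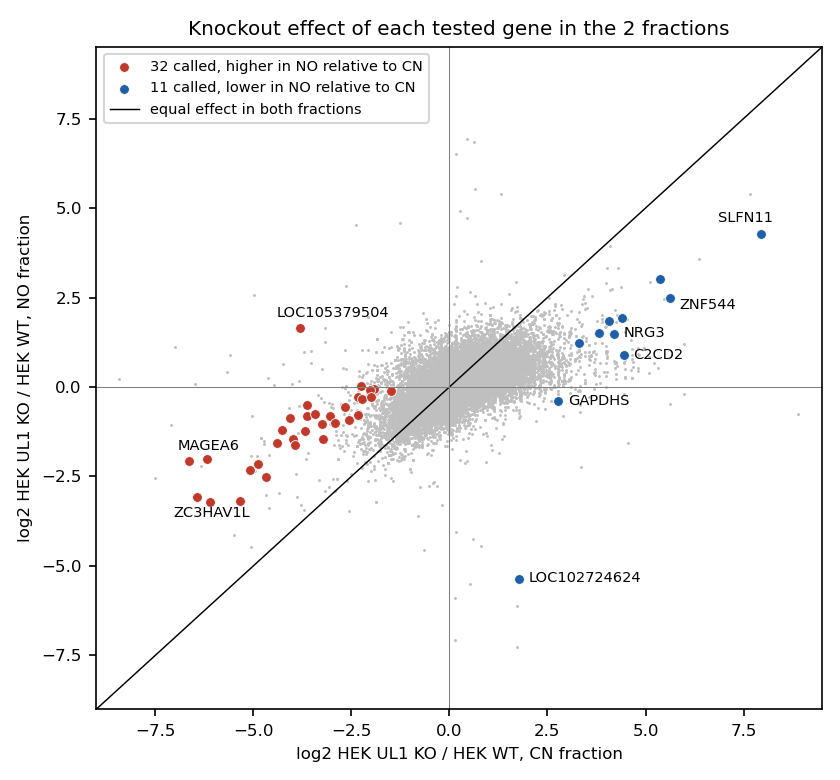
Log2 HEK UL1 KO to HEK WT ratio in CN (horizontal axis) and NO (vertical axis) for each of 37806 tested genes (grey), with the 32 genes called higher (red) and the 11 called lower (blue) in NO relative to CN; the diagonal is an equal effect. The 42 called genes other than LOC102724624 had a smaller effect in NO than in CN and lie between the diagonal and the horizontal line at 0 or just past that line, as far as 1.66 for LOC105379504.

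The NO to CN ratio of the called genes, which were selected by its change, can be described by its side of 1. In HEK WT, 30 of the 32 genes of the first group had a lower mean CPM in NO than in CN, and in HEK UL1 KO all 32 had a higher mean CPM in NO. The median ratio of NO to CN was 0.629 in HEK WT and 2.96 in HEK UL1 KO. In the second group 11 of 11 genes were higher in NO in HEK WT and 10 of 11 were lower in NO in HEK UL1 KO, with median ratios of 4.04 and 0.584. Over all tested genes the median ratio was 1.19 in both genotypes, 3.58% crossed 1 in the first direction and 3.80% in the second. Crossing 1 is largely fixed by the selection, so nothing is read from the shares of the called genes against these.

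**Figure D2:**
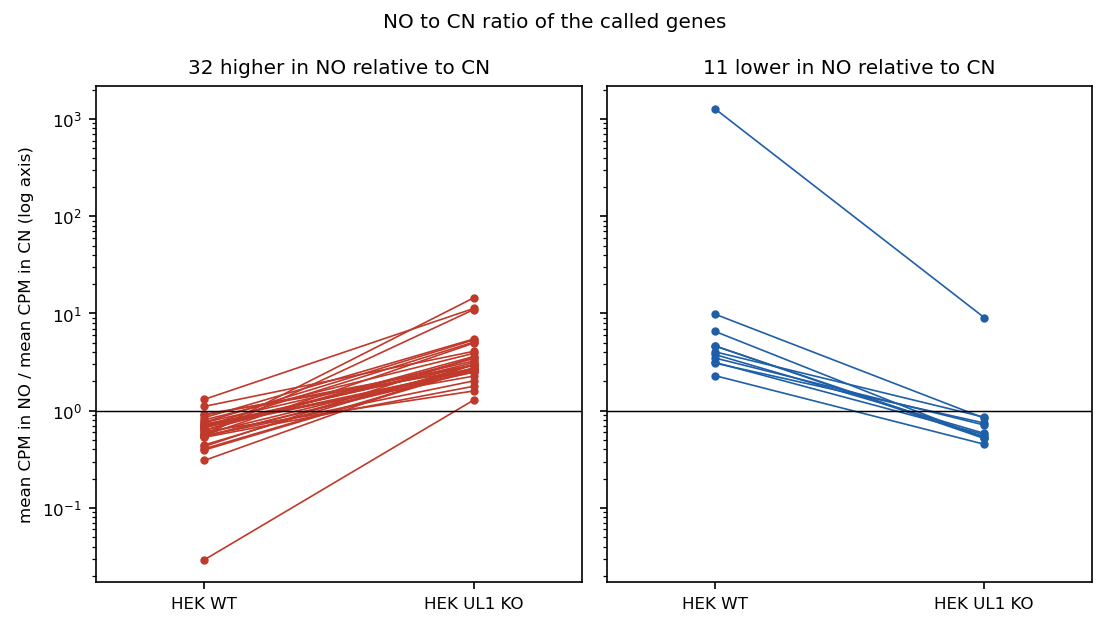
Ratio of mean CPM in NO to mean CPM in CN (log axis) for each called gene in HEK WT and HEK UL1 KO, with 3 libraries behind each mean and lines joining the same gene. Among the 32 higher genes the ratio moved from a median of 0.629 to 2.96, and among the 11 lower genes from 4.04 to 0.584.

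Wild-type and knockout libraries did not overlap in CN for any of the 43 genes, where 43.9% of all tested genes also did not overlap. In NO they did not overlap for 24 of the 32 and 9 of the 11, against 19.7% of all tested genes. The genes were called from these same values, so their separation restates the selection. In a bulk fraction, fewer cells with a transcript and less of it per cell cannot be told apart.

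Most of the genes in the first group were long non-coding RNAs. Of the 32, 22 were annotated by RefSeq as lncRNA (68.8%, against 26.5% of tested genes), 9 as protein coding and 1 had no match. LINC01036 on chr1:187092842-187360244 measured 13.1, 17.4 and 12.3 CPM in HEK WT NO and 3.41, 2.33 and 3.93 CPM in HEK UL1 KO NO. In CN the same RNA measured 35.5, 34.8 and 38.4 CPM in HEK WT and 1.10, 1.18 and 1.4 CPM in HEK UL1 KO. The knockout lay below the wild type in both fractions without overlap, and CN had the highest wild-type and the lowest knockout levels. LINC01036 fell by 2.14 in NO and by 4.88 in CN on the log2 scale, and the difference was 2.74 ± 0.31 (SE; adjusted p = 0.000499).

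LOC105374524, an lncRNA on chr4:22997532-23504837, passed the test in CN and not in NO. Its levels were 6.49, 7.22 and 6.59 CPM in HEK WT NO and 7.62, 6.46 and 6.74 CPM in HEK UL1 KO NO. Its CN levels were 8.70, 8.83 and 7.71 CPM in HEK WT and 1.32, 1.75 and 2.27 CPM in HEK UL1 KO. The NO groups overlapped and the CN groups did not. The log2 change was 0.04 in NO (adjusted p = 0.925) and -2.24 in CN, a difference of 2.28 ± 0.28 (SE; adjusted p = 0.00102). LINC00355 had a like pattern, with group means of 3.61 and 3.50 CPM in NO and of 3.26 and 0.858 CPM in CN (difference 1.88, adjusted p = 0.0144), and was not called without HEK WT CN replicate 1 or HEK UL1 KO CN replicate 1 or 2. Of the 1696 tested LINC genes, 10 were called higher and 0 lower, beside 0.0846% and 0.0291% of all genes. The median difference of the LINC genes was -0.14 (-0.25 to 0.01 over 6 scalings), beside -0.06 over all genes.

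Several called lncRNA genes were neighbours. LINC01036 and LINC01037 lay 83.4 kb apart, LINC00470 and LOC105371954 4.0 kb apart and LOC105375158 and LOC107986770 233 kb apart, and MIR646HG and LOC105372698 overlapped. Each pair had the same direction, and the members of a pair need not be independent. The differences were 2.74 and 2.17 for the first pair, 2.75 and 2.83 for the second, 1.95 and 1.71 for the third, and 2.83 and 2.69 for the last. One member of each pair was less stable than the other: LINC01037 was called in 13 of 26 alternatives, LOC105371954 in 11 of 26, LOC107986770 in 16 of 27 and LOC105372698 in 12 of 26, each lost without any 1 of 7 or 8 libraries, whereas LINC01036 and LINC00470 were called in 26 of 27, LOC105375158 in 24 of 27 and MIR646HG in 25 of 27. Reads from the overlapping pair cannot be told apart where strand was not used in counting, which is not given in the sources used here. The same limit holds more widely, since 21 of the 43 called genes overlapped another RefSeq gene. Among them were OXCT1, FBXL7, LINC01036, NRG3, SLFN11, ZNF544, ZNF718, C2CD2 and GAPDHS.

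The protein-coding genes of the first group included OXCT1, which encodes the mitochondrial enzyme that lets cells use ketone bodies. OXCT1 (chr5:41730065-41870425) measured 6.57, 7.54 and 6.86 CPM in HEK WT NO and 3.40, 2.77 and 2.78 CPM in HEK UL1 KO NO. It measured 10.4, 10.9 and 12.2 CPM in HEK WT CN and 0.736, 0.852 and 1.01 CPM in HEK UL1 KO CN. The groups did not overlap in either fraction, and the knockout CN libraries were the lowest of the 12. OXCT1 fell by 1.22 in NO and by 3.69 in CN on the log2 scale, and the difference of 2.46 ± 0.27 (SE) had the smallest adjusted p of the fit (0.000499), shared with LOC105379062, LOC105379618 and LINC01036. FBXL7, the substrate-binding subunit of a ubiquitin ligase, measured 13.0, 13.5 and 12.4 CPM in HEK WT NO and 11.6, 9.73 and 10.5 CPM in HEK UL1 KO NO. Its CN levels were 18.4, 19.6 and 16.9 CPM in HEK WT and 3.48, 3.55 and 3.82 CPM in HEK UL1 KO. FBXL7 fell in CN and was not called in NO, with log2 changes of -2.34 and -0.29 (NO adjusted p = 0.336), although its NO groups did not overlap; the difference was 2.05 ± 0.24 (SE; adjusted p = 0.000688).

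ZC3HAV1L, a relative of the antiviral zinc-finger protein ZAP, was close to the limit of detection in the knockout. Its counts were 116, 105 and 113 in HEK WT NO and 41, 8 and 12 in HEK UL1 KO NO, and 511, 422 and 377 in HEK WT CN and 4, 5 and 4 in HEK UL1 KO CN. ZC3HAV1L was lower in the knockout without overlap in both fractions, with log2 changes of -3.09 in NO and -6.44 in CN, and the difference was 3.36 ± 0.45 (SE; adjusted p = 0.00236). The cancer-testis genes MAGEA6 and MAGEA3, which are near-identical copies on chromosome X whose reads the counting could split, had differences of 4.58 (adjusted p = 0.0155) and 4.16 (adjusted p = 0.0373). MAGEA6 was called in 18 of 26 alternatives and not without HEK UL1 KO NO replicate 1, HEK WT CN replicate 1 or HEK UL1 KO CN replicate 1 or 2. MAGEA3 was called in 9 of 26, and its call was lost without any 1 of 8 libraries, namely HEK WT NO replicate 1, HEK UL1 KO NO replicates 1 and 2, HEK WT CN replicates 1 and 3 and the HEK UL1 KO CN libraries. MAGEA6 had 0, 1 and 1 counts in HEK UL1 KO CN against 95, 83 and 82 in HEK WT CN, a knockout level of 0.866% of the wild type with a 95% counting interval of 0.104% to 3.16%. In NO its counts were 35, 48 and 37 in HEK WT and 26, 13 and 5 in HEK UL1 KO, with all knockout libraries lower in CPM. At 0 to 2 counts a fitted log2 change depends on the prior count and is no bound.

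MKX, a homeobox factor of tendon cells, and MAP7D2, a microtubule-associated protein, had smaller differences of 1.90 (adjusted p = 0.00888) and 1.64 (adjusted p = 0.0121), and both fell in each fraction. The difference in MKX was no longer called when HEK UL1 KO NO replicate 1 or any of the HEK UL1 KO CN libraries was left out. MAP7D2 was called in 16 of 27 alternatives, and not under either replicate block or without HEK WT NO replicate 1, HEK UL1 KO NO replicate 1, HEK WT CN replicate 1 or 2 or any of the HEK UL1 KO CN libraries. LOC105379504, a protein-coding locus on chr21:7772829-7786307, had the largest positive difference among the called genes, 5.46 ± 0.72 (SE; adjusted p = 0.00201). It measured 0.671, 0.490 and 0.703 CPM in HEK WT NO, 2.73, 2.79 and 0.350 CPM in HEK UL1 KO NO, 16.6, 13.1 and 34.1 CPM in HEK WT CN and 2.14, 1.20 and 1.22 CPM in HEK UL1 KO CN. Knockout replicates 1 and 2 were above the wild type in NO and replicate 3 was below it, whereas all knockout libraries were below the wild type in CN. The log2 change was 1.66 in NO, not called (adjusted p = 0.0742), and -3.80 in CN. No called gene passed the test in both fractions with opposite signs.

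**Figure D3:**
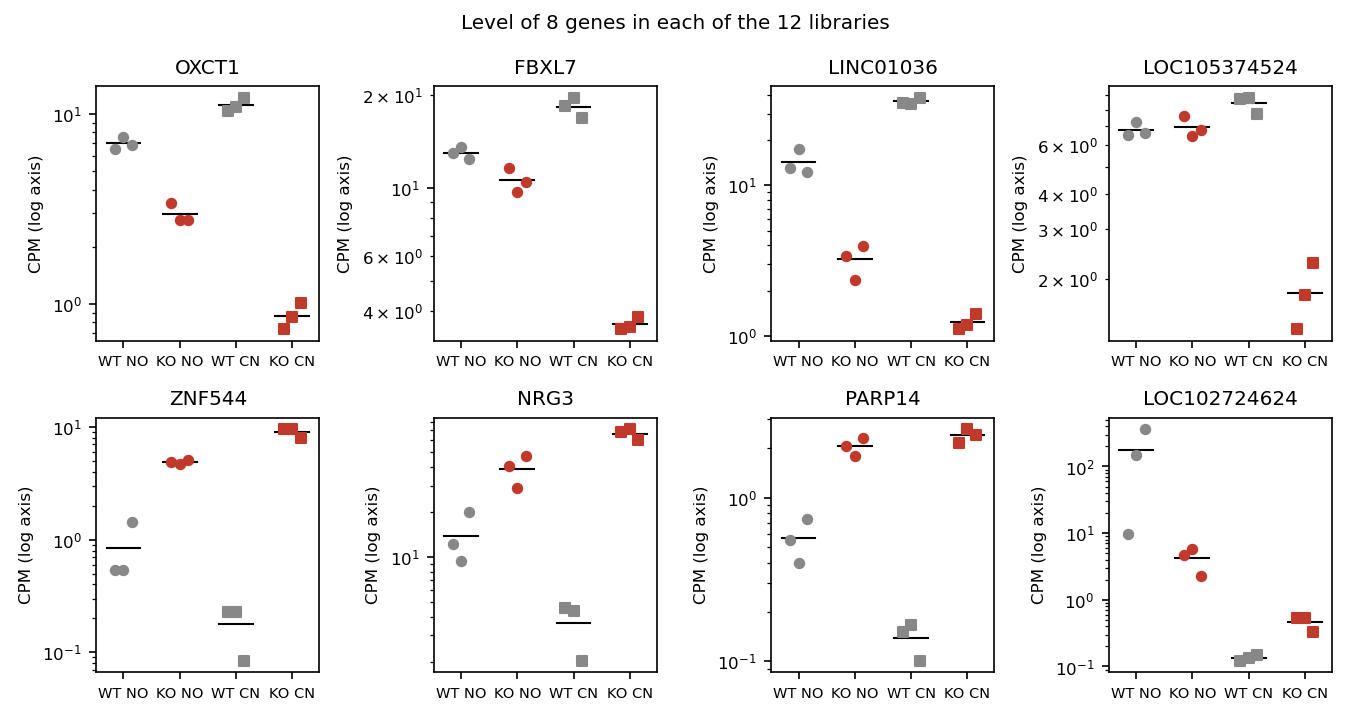
CPM (log axis) of 8 genes in each of the 12 libraries, with circles for NO, squares for CN, grey for HEK WT, red for HEK UL1 KO and a bar at the mean of 3. In OXCT1, FBXL7, LINC01036 and LOC105374524 the knockout CN libraries are the lowest, and in ZNF544, NRG3 and PARP14 the wild-type CN libraries are the lowest; in LOC102724624 HEK WT NO spans 9.55 to 364 CPM.

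The second group, with a lower NO to CN ratio in the knockout, held 10 protein-coding genes and 1 lncRNA. None of its members was called with total counts or with total counts outside rRNA, and 2 genes were called lower with at least 10 counts in every library and 2 with a block for genotype and replicate number, against 11. All 10 protein-coding genes rose in CN. ZNF544 (chr19:58228914-58277455), a C2H2 zinc-finger protein, measured 0.533, 0.537 and 1.43 CPM in HEK WT NO and 4.86, 4.68 and 5.05 CPM in HEK UL1 KO NO. It measured 0.228, 0.227 and 0.0840 CPM in HEK WT CN and 9.49, 9.56 and 8.04 CPM in HEK UL1 KO CN. The gene rose in both fractions without overlap, by log2 changes of 2.49 in NO and 5.62 in CN, and the difference was -3.13 ± 0.48 (SE; adjusted p = 0.00815). ZNF718 and ZFP82, of the same protein class, rose by 3.02 and 1.92 in NO and by 5.37 and 4.40 in CN, with differences of -2.35 and -2.48. ZNF544 was called in 23 of 26 alternatives and ZNF718 in 23 of 27, neither lost with any single library left out, and ZFP82 in 11 of 26, lost without any 1 of 8 libraries. Of the 567 tested ZNF genes, 2 were called lower and 0 higher, beside 0.0291% and 0.0846% of all genes. The median difference of the ZNF genes was -0.06, as over all genes.

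NRG3 is an epidermal growth factor family ligand. Its levels were 12.3, 9.44 and 19.9 CPM in HEK WT NO, 40.5, 29.0 and 47.2 CPM in HEK UL1 KO NO, 4.59, 4.36 and 2.03 CPM in HEK WT CN and 68.3, 71.5 and 60.1 CPM in HEK UL1 KO CN. Wild-type NO was above wild-type CN, knockout NO was below knockout CN, and the genotypes did not overlap. The difference was -2.70 ± 0.43 (SE; adjusted p = 0.0109), from log2 changes of 1.48 and 4.18. SFRP1, a secreted inhibitor of Wnt signalling, had a difference of -2.31 (adjusted p = 0.00471), and CYP7B1, an oxysterol hydroxylase, of -2.06 (adjusted p = 0.0152). NRG3 and SFRP1 kept their call with each library left out, and CYP7B1 lost it without HEK WT CN replicate 1 or 2 or HEK UL1 KO CN replicate 1 or 2.

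SLFN11, which acts on stalled replication forks, and PARP14, a mono-ADP-ribosyltransferase, were also in this group. SLFN11 counts were 14, 6 and 50 in HEK WT NO, 989, 334 and 475 in HEK UL1 KO NO, 5, 5 and 1 in HEK WT CN and 797, 1020 and 675 in HEK UL1 KO CN. The log2 change was 4.26 in NO and 7.94 in CN, and the difference of -3.68 ± 0.62 (SE; adjusted p = 0.0152) lost its call without HEK WT NO replicate 3, HEK WT CN replicate 1 or HEK WT CN replicate 3. PARP14 measured 0.553, 0.397 and 0.744 CPM in HEK WT NO, 2.06, 1.79 and 2.31 CPM in HEK UL1 KO NO, 0.152, 0.167 and 0.101 CPM in HEK WT CN and 2.16, 2.62 and 2.42 CPM in HEK UL1 KO CN. PARP14 rose in both fractions without overlap, the knockout NO and CN libraries overlapped each other while the wild-type ones did not, and the difference was -2.24 ± 0.39 (SE; adjusted p = 0.0202). The call of PARP14 was kept in 11 of 26 alternatives and was lost without any 1 of 8 libraries, namely HEK WT NO replicate 1, HEK UL1 KO NO replicates 1 and 2, the HEK WT CN libraries and HEK UL1 KO CN replicates 1 and 2. HEK WT NO replicate 3 was the highest wild-type NO library in 10 of the 11 genes of this group and in 9 of the 32 of the other. The number called lower was 15 without it, 27 without HEK WT NO replicate 2, 7 without HEK WT CN replicate 3 and 4 without HEK WT CN replicate 1.

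GAPDHS and C2CD2 rose in CN and were not called in NO. GAPDHS, the sperm form of glyceraldehyde-3-phosphate dehydrogenase, measured 10.4, 20.4 and 12.7 CPM in HEK WT NO, 9.58, 9.88 and 13.7 CPM in HEK UL1 KO NO, 1.82, 2.68 and 4.85 CPM in HEK WT CN and 22, 10.6 and 31.4 CPM in HEK UL1 KO CN. The genotypes overlapped in NO and not in CN, and the difference was -3.17 ± 0.52 (SE; adjusted p = 0.0142). GAPDHS overlaps the gene TMEM147-AS1, so the reads counted for it need not be its own. C2CD2 had log2 changes of 0.88 in NO (adjusted p = 0.187) and 4.45 in CN, a difference of -3.56, and its HEK WT NO levels were 0.869, 0.701 and 3.17 CPM, the last above 2 of the 3 knockout libraries. GAPDHS was not called without HEK UL1 KO NO replicate 1 or HEK WT CN replicate 1 or 2, and C2CD2 not without HEK UL1 KO NO replicate 2 or HEK WT CN replicate 1 or 3.

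LOC102724624, an lncRNA on chr17:19089443-19096362, had the largest difference in size among the called genes, -7.14 ± 1.20 (SE; adjusted p = 0.0152). Its counts were 484, 6459 and 26407 in HEK WT NO, 616, 316 and 118 in HEK UL1 KO NO, 8, 9 and 9 in HEK WT CN and 32, 33 and 16 in HEK UL1 KO CN. HEK WT NO replicates 2 and 3 were far above the other 10 libraries, and replicate 1, at 9.55 CPM, was nearer to the knockout NO libraries, at 2.29 to 5.71 CPM. The call of LOC102724624 was kept in 18 of 26 alternatives. It was lost without HEK WT CN replicate 1 (adjusted p = 0.0565), with sample quality weights (-3.36, adjusted p = 0.240), with voom without weights, with either scaling by totals, with the replicate block by number, without both HEK WT libraries numbered 3, and without HEK WT NO replicate 3 and HEK UL1 KO NO replicate 1 together. The neighbouring lncRNA GRAPL-AS1 was just outside the threshold, with a difference of -7.85 (adjusted p = 0.0561). The last genes inside the threshold were LOC105378031 (1.38) and LINC02814 (1.55), both with an adjusted p of 0.0400. The other genes next outside it were LOC105371363 (-3.50, adjusted p = 0.0524) and PLIN2 (2.60, adjusted p = 0.0663).

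The sequences of 4 promoters are shown because these genes, whose values are given above, carry the contrast between the groups, with OXCT1 and ZC3HAV1L falling more in CN and ZNF544 and PARP14 rising more in CN. Each is 300 bases from RefSeq on GRCh38.p14, 5′ to 3′ on the gene's strand from 250 bases before the start, with CG dinucleotides in capitals (CG reads the same on both strands). They lie at chr5:41870376-41870675 (minus), chr7:139035993-139036292 (minus), chr19:58228664-58228963 (plus) and chr3:122680589-122680888 (plus).
OXCT1: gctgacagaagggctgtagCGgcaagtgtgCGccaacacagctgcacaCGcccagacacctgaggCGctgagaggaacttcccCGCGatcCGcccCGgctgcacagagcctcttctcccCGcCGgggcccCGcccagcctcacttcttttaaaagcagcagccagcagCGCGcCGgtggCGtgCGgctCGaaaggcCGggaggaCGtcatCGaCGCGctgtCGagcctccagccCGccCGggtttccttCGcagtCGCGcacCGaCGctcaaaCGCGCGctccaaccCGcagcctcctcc
ZC3HAV1L: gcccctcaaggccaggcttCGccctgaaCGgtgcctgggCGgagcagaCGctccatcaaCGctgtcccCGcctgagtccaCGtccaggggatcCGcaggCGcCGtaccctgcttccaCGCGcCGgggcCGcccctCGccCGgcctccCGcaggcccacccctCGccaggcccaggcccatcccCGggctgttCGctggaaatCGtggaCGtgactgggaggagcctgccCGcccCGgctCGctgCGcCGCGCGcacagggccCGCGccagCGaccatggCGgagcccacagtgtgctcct
ZNF544: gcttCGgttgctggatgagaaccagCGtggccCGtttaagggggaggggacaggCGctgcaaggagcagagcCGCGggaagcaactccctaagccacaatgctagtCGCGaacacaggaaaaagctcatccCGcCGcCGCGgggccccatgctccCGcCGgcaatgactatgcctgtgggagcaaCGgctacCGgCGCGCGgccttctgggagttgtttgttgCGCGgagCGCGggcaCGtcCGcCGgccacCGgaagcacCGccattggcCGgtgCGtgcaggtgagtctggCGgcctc
PARP14: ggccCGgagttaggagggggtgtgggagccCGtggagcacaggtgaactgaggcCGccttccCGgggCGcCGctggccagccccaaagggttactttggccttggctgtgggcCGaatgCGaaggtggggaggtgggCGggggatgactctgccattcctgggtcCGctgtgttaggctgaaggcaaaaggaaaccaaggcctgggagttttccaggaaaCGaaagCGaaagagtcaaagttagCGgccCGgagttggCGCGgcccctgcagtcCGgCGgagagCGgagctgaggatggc
They held 34, 33, 31 and 19 CG dinucleotides in that order. A promoter was matched for 16 of the 32 and 9 of the 11 genes, with a median of 13 and 26 CG, beside 14 over 27305 promoters; at least 15 CG were present in 7 of 16 and 8 of 9, and in 48.8% of all promoters. These counts describe the windows alone.

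Genes chosen for a large effect in 1 fraction had, in the median, a smaller effect in the other. Among the 65 genes that fell by at least 3 log2 units in CN by the test, the median change was -4.39 in CN and -1.45 in NO, and 21 of them were called in the interaction. Among the 119 that rose by at least 3 in CN, the medians were 3.66 and 1.17. Selecting on a fraction makes its values larger than an unselected measure would be. Likewise the 20 genes that fell by at least 3 in NO had medians of -3.54 in NO and -1.87 in CN, and the 15 that rose by at least 3 in NO had medians of 4.54 and 1.33. At smaller NO effects those that rose by 2 to 3 had medians of 2.21 in NO and 2.67 in CN, and those that rose by 1 to 2 had medians of 1.28 and 1.49. Those that fell by 2 to 3 had medians of -2.30 in NO and -2.09 in CN. The genes with the large CN falls had median levels of 0.149 CPM in HEK UL1 KO CN and 0.469 CPM in HEK UL1 KO NO. The genes with the large CN rises had 0.0106 CPM in HEK WT CN and 0.163 CPM in HEK WT NO, so in each set the low genotype was read at a higher level in NO, and levels this low make fitted changes depend on the prior count. As given above, olfactory receptor genes were also read at a higher level in NO. Their sum was 60.1 to 69.5 CPM in HEK UL1 KO NO against 28.7 to 34.6 CPM in HEK UL1 KO CN, and 37.4 to 76.0 CPM in HEK WT NO against 19.7 to 29.1 CPM in HEK WT CN. Markers of other cell types, 8 genes, summed to 2.45 to 3.65 CPM in NO and 1.14 to 2.05 CPM in CN, with none at 0 in NO and at most 1 at 0 in a CN library. Their part in the result was not tested.

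RNA kinds were then followed as sums. For each of 26 kinds the counts of its genes were added in each library and fitted like a gene, and edgeR called none (all adjusted p = 1), 1 of 26 had an unadjusted p under 0.05, and limma with sample quality weights called 9. The estimate was negative for 17 kinds and positive for 9, and the 95% intervals were 1.29 to 3.48 log2 units wide from end to end.

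**Figure D4:**
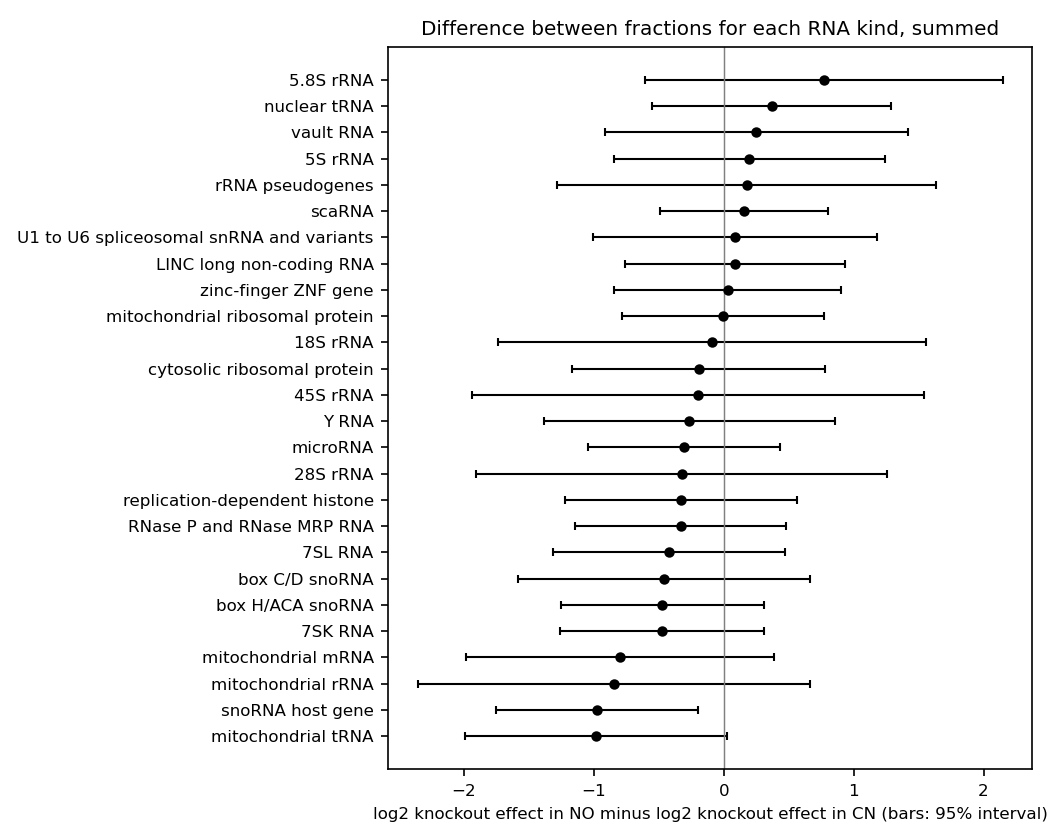
Log2 knockout effect in NO minus that in CN (horizontal axis) for the summed counts of 26 RNA kinds, with approximate 95% intervals from the fit of 12 libraries. The interval of the snoRNA host genes, -1.75 to -0.20, is the only one of the 26 that leaves out 0 before adjustment.

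Among rRNAs, 5.8S stood on the positive side. Its sequence is shown because all 7 of its entries had a positive difference and, being near-identical copies, may share reads. The copy RNA5-8SN1 lies on chr21:8439822-8439978 (GRCh38, plus strand), with no part in capitals.
RNA5-8SN1: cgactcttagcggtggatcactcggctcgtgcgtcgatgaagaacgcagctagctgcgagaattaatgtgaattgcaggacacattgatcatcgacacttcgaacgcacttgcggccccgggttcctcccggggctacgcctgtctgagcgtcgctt
The 5.8S entries summed to 11060, 6628 and 3281 CPM in HEK WT NO and 2286, 6340 and 4082 CPM in HEK UL1 KO NO. They summed to 13470, 13570 and 20550 CPM in HEK WT CN and 6407, 5356 and 5121 CPM in HEK UL1 KO CN. The genotypes overlapped in NO and were well apart in CN. The sum fell in CN by 1.5 on the log2 scale (adjusted p = 0.0489) and was -0.72 in NO (adjusted p = 0.387). The difference was 0.77 with a 95% interval of -0.60 to 2.15. An exact permutation of genotype labels within fractions gave p = 0.43 (two-sided, smallest possible 0.005). Its null is no genotype effect in either fraction. An effect in a fraction widens its distribution, so it does not test the difference alone. The log2 ratio of 5.8S to 28S, which no scaling alters, was -3.95, -4.65 and -4.72 in HEK WT NO, -5.53, -4.01 and -4.43 in HEK UL1 KO NO, -3.84, -3.70 and -3.79 in HEK WT CN and -4.98, -5.07 and -5.21 in HEK UL1 KO CN. The ratio overlapped between genotypes in NO and was lower in every knockout library in CN. The median over the 7 entries was positive under each of 6 scalings (0.53 to 0.92) and -0.74 with sample quality weights.

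The other rRNAs were near 0 with wide intervals. The sums differed by -0.20 for 45S, -0.32 for 28S, -0.09 for 18S and 0.20 for 5S, and 45S and 18S were positive instead with scaling by total counts. Small nucleolar RNAs, the guides of rRNA modification, gave -0.46 for box C/D and -0.47 for box H/ACA. By gene, 0 of 181 box C/D and 0 of 136 box H/ACA snoRNAs were called, beside 0.114% of all genes. Their medians of -0.22 and 0.06 changed sign in at least 1 of 6 scalings. An unadjusted p under 0.05 was found for 8 and 2 of them, beside 3.32% of all genes. U3 (SNORD3A), the snoRNA of early pre-rRNA cleavage, and RMRP, the RNase MRP RNA, differed by -0.36 and -0.42. Fixed reference genes were as close: of 12 such genes the differences ran from -0.48 (RN7SK) to -0.002 (HNRNPUL1), with RPPH1 at -0.31, RN7SL1 at -0.41, MALAT1 at -0.08, NEAT1 at -0.09, GAPDH at -0.17, FBL at -0.20, RPS6 at -0.37 and RPS15 at -0.21, all with adjusted p = 1.

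The snoRNA host genes, whose introns release snoRNAs, had the lowest p of the 26 sums. They summed to 681, 435 and 584 CPM in HEK WT NO, 273, 264 and 220 CPM in HEK UL1 KO NO, 237, 204 and 213 CPM in HEK WT CN and 160, 165 and 246 CPM in HEK UL1 KO CN. The knockout was below the wild type without overlap in NO, and overlapped it in CN, where replicate 3 was the highest of the 6. The sum fell in NO by 1.17 on the log2 scale (adjusted p = 0.0174) and was -0.19 in CN (adjusted p = 0.663). The difference was -0.98 with a 95% interval of -1.75 to -0.20 (unadjusted p = 0.0167, adjusted p = 1). The exact permutation test, whose null is no genotype effect in either fraction, gave p = 0.11. Of 34 tested host genes 0 were called and 4 had an unadjusted p under 0.05, beside 0.114% and 3.32% of all genes. Of these host genes 27 were negative, and their median was -0.42 (-0.55 to -0.18 over 6 scalings). GAS5, a host gene of many box C/D snoRNAs, had group means of 113 and 38.4 CPM in NO and of 25.8 and 14.6 CPM in CN, a difference of -0.73 (adjusted p = 1), and SNHG32 had a difference of -0.68.

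Mitochondrially encoded RNAs lay together on the negative side. They are made in the mitochondrion from polycistronic transcripts that are cut at the tRNAs. The tRNAs for aspartate and valine are shown since these had the smallest p values of the 24 entries picked as mitochondrial tRNA. The pick was by symbol and can take in genes of other kinds, and the sum below rests on the same entries. The tRNAs for aspartate and valine lie on chrM:7518-7585 and chrM:1602-1670 (GRCh38, plus strand), with no part in capitals.
MT-TD (TRND): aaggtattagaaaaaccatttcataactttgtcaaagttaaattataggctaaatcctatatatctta
MT-TV (TRNV): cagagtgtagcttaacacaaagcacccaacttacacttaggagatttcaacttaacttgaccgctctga
The differences were -1.08 for TRND and -1.17 for TRNV (both adjusted p = 1). Mitochondrial tRNA summed to 3201, 4638 and 1710 CPM in HEK WT NO, 1391, 1783 and 1675 CPM in HEK UL1 KO NO, 1146, 1109 and 1083 CPM in HEK WT CN and 1181, 1173 and 1005 CPM in HEK UL1 KO CN. The NO genotypes touched, with a knockout library above HEK WT NO replicate 3, and the CN genotypes overlapped. The difference of the sum was -0.99 with a 95% interval of -1.99 to 0.02 (unadjusted p = 0.0545, adjusted p = 1). The exact permutation test gave p = 0.15, and p = 0.02 with the sum taken as a share of counts outside rRNA, which was 0.52 after adjustment over 26 kinds.

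By gene, 13 of 13 mitochondrial mRNAs, 2 of 2 mitochondrial rRNAs and 21 of 24 entries picked as mitochondrial tRNA were negative. The medians were -0.80, -0.82 and -0.66 beside -0.06 over all genes. Of these genes 0 were called, beside 0.114% of all genes. At an unadjusted p under 0.05 there were 3, 0 and 3, and 1 of the tRNA entries among them was higher. These genes share transcripts and libraries and are not independent of each other. ND6, a subunit of respiratory complex I on the light strand, measured 14.9, 15.4 and 10.8 CPM in HEK WT NO, 8.20, 9.66 and 9.54 CPM in HEK UL1 KO NO, 6.06, 6.89 and 6.06 CPM in HEK WT CN and 9.37, 6.78 and 9.85 CPM in HEK UL1 KO CN. The genotypes were apart in NO and overlapped in CN, and the difference was -1.04 ± 0.28 (SE; adjusted p = 0.455). The separation of ND6 in NO did not hold for the sums. Mitochondrial mRNA summed to 11260, 21630 and 8248 CPM in HEK WT NO and 6051, 6204 and 9356 CPM in HEK UL1 KO NO. These overlapped, as did the sums of mitochondrial rRNA in NO. COX2, a subunit of complex IV, had a difference of -1.0 (adjusted p = 1). The medians of mitochondrial mRNAs stayed negative under all 6 scalings (-0.95 to -0.56), with 13 of 13 negative in each.

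**Figure D5:**
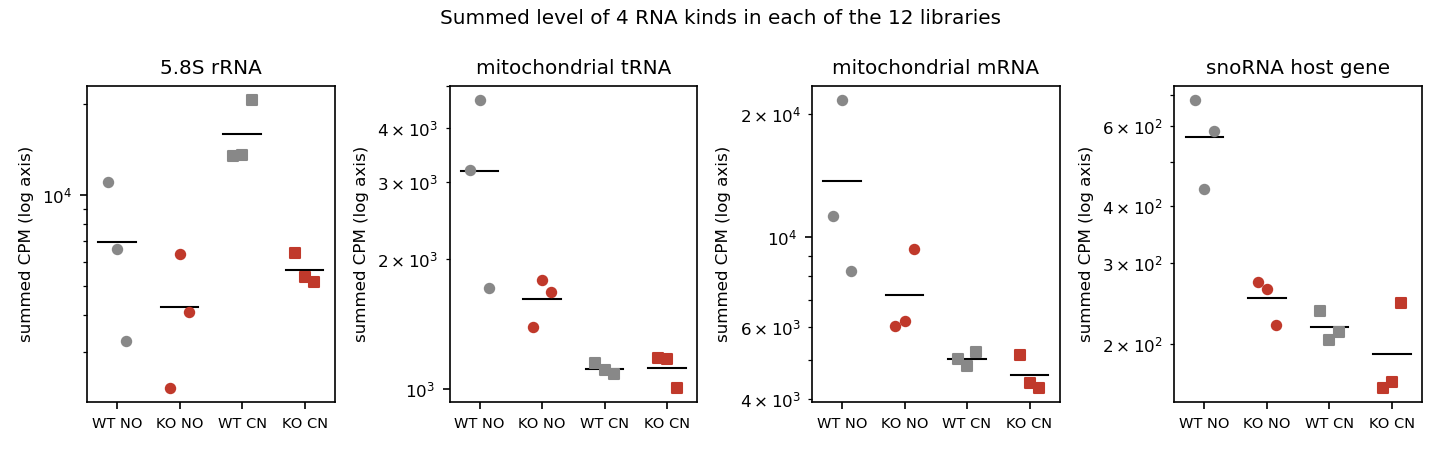
Summed CPM (log axis) of 5.8S rRNA, mitochondrial tRNA, mitochondrial mRNA and snoRNA host genes in each of the 12 libraries, with circles for NO, squares for CN, grey for HEK WT, red for HEK UL1 KO and a bar at the mean of 3. 5.8S rRNA is apart between genotypes in CN, and the snoRNA host genes are apart in NO.

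Genes of ribosome production and of other pathways had no called member, and at an unadjusted p under 0.05 each of these lists had between 0 and 2. Over all tested genes the shares were 0.114% and 3.32%. At a share of 0.114% most lists of this size would hold no called gene, so the absence of calls is not particular to these lists. The counts and median differences were as follows for RNA polymerase I and its factors (0 of 21, median 0.02), RNA polymerase III and its factors (0 of 22, -0.05), the small-subunit processome (0 of 41, -0.03), large-subunit assembly factors (0 of 44, -0.09), snoRNP core proteins (0 of 18, -0.08) and cytosolic ribosomal proteins (0 of 102, -0.18). Each of these medians changed sign in at least 1 of 6 scalings, with the median of all genes moving alongside (-0.17 to 0.16). The members with the smallest p values were NOC4L of the processome (-1.12), NOP56 of the snoRNP core (-0.68) and RPL27A of the large ribosomal subunit (-0.82), with adjusted p of 1, 1 and 0.942. Replication-dependent histones, which are made without poly(A) tails, had 0 called members, 48 of 52 negative and a median of -0.31, with 33 of 52 negative under scaling by total counts and 27 with total counts outside rRNA, where 40 of 52 were below the median of all genes. Nuclear tRNA genes had 0 called members, 6 at an unadjusted p under 0.05, 191 of 279 positive and a median of 0.29 (0.16 to 0.49 over 6 scalings, and -0.65 with sample quality weights). No member was called among hnRNP proteins (0 of 29), mRNA export factors (0 of 19), DNA end resection and break signalling genes (0 of 24), p53 targets (0 of 26) or nuclear-encoded respiratory chain genes (0 of 70, with ATP5F1D at -1.53). With sample quality weights 4.23% of all genes were called lower and 3.47% higher. Called lower there were 18 of 24 entries picked as mitochondrial tRNA, 7 of 13 mitochondrial mRNAs and 33 of 52 histones. So were 18 of 19 5S entries and 32 of 102 ribosomal protein genes, and 93 of 1696 LINC genes were called higher.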

How the data were processed

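RNA was measured in 12 libraries, 6 of the nucleolar and 6 of the cytoplasmic-nuclear fraction, and both genotypes were present in each. The authors deposited raw counts of reads per gene, 1 table for each fraction, and the submitters' processing notes name FastQC 0.11.4, cutadapt 3.7, STAR 2.7.8, featureCounts, DESeq2 and the build GRCh38. Counting options, strand and annotation version are not given in the sources used here, so reads of overlapping genes and of near-identical copies may be split or shared; 1372 entries had counts identical to an earlier entry.

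From those counts, all 12 libraries were fitted together with the quasi-likelihood test of edgeR 4.0.16 in R 4.3.3 (4 groups, TMM scaling with rRNA genes kept, filterByExpr with a minimum count of 10 and a minimum total of 15), and the contrast was the knockout effect in NO minus that in CN. Of 61163 genes 37806 were tested, 35479 of them matched to RefSeq, and p-values were adjusted over all tested genes by the Benjamini-Hochberg method with a threshold of 0.05. Adjusted p-values in the text come from this test unless another tool is named. CPM are counts relative to the TMM-scaled library total. Counts of 26 RNA kinds were summed per library and fitted with the genes. Each sum was also tested by an exact two-sided permutation of genotype labels within fractions (400 arrangements, smallest p 0.005). Labels were permuted separately in each fraction. The null is thus no genotype effect in either fraction, and not an equal effect in both. The groups come from the sample labels, and p-values measure the spread between these replicates, which may come from 1 line per genotype. Intervals of counted shares are exact and cover counting error only.

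Named genes are the 15 largest called differences in each direction, 12 fixed reference genes, and for each list its called members or the 2 with the smallest p. The comparison, the lists and the tests were chosen with earlier results of these data known. OXCT1, ZC3HAV1L, ZNF544 and PARP14 were chosen for their promoters, and genes next to the threshold and the neighbouring pairs were named, after their values were seen, and the symbol pattern for microRNAs was corrected after values were seen. Alternatives were total counts, total counts outside rRNA, DESeq2 size factors, TMM within fractions or without rRNA genes, DESeq2 1.42.0, limma 3.58.1 voom with sample quality weights, other filters, replicate blocks and each library left out. Scripts were tested on simulated counts. Sequences and annotation are RefSeq, GRCh38. Plots were drawn with matplotlib 3.10.9, and Python 3.11.15 with pandas 2.3.3 and numpy 2.4.6 handled the tables.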

Additional observations from a re-analysis of the deposited data

Results flagged for a closer look

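The 43 genes whose knockout effect differed between the NO and CN fractions by the test of that difference (edgeR quasi-likelihood test, adjusted over all genes) are given here with the log2 effect in NO minus that in CN. Among LINC genes and host transcripts the difference was positive for MIR646HG (2.83), LINC00470 (2.75), LINC01036 (2.74), LINC02315 (2.31), LINC02444 (2.23), LINC01037 (2.17), LINC01687 (2.15), LINC00351 (2.10), LINC00355 (1.88), LINC02476 (1.75) and LINC02814 (1.55). It was positive for the named protein-coding genes MAGEA6 (4.58), MAGEA3 (4.16), ZC3HAV1L (3.36), OXCT1 (2.46), FBXL7 (2.05), MKX (1.90) and MAP7D2 (1.64). Among loci without a given name it was positive for LOC105379504 (5.46), LOC105372210 (3.20), LOC112268317 (3.11), LOC105379062 (3.05), LOC105379618 (2.88), LOC105371954 (2.83), LOC105372698 (2.69), LOC105376010 (2.53), LOC105374524 (2.28), LOC107985969 (2.21), LOC105375158 (1.95), LOC105379144 (1.90), LOC107986770 (1.71) and LOC105378031 (1.38). It was negative for LOC102724624 (-7.14), SLFN11 (-3.68), C2CD2 (-3.56), GAPDHS (-3.17), ZNF544 (-3.13), NRG3 (-2.70), ZFP82 (-2.48), ZNF718 (-2.35), SFRP1 (-2.31), PARP14 (-2.24) and CYP7B1 (-2.06). Each group held 3 libraries, which is too few to decide within a group which library is outlying. The number called with each library left out is given below. All 43 kept their direction under 5 other scalings, with 0 to 44 genes called, and without HEK WT NO replicate 3, where 41 of them were called. The part of the higher reading of olfactory receptor genes and of markers of other cell types in NO was not tested.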

How the results depend on the processing

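All 43 called genes kept their sign in every alternative that tested them, and the number called changed. Against 43 called (32 higher, 11 lower), scaling by total counts gave 0 (0 and 0, with 461 genes at an unadjusted p under 0.05), total counts outside rRNA 18 (18 and 0), DESeq2 79 (50 and 29), limma voom with sample quality weights 2910 (1311 and 1599), no filter 104 (51 and 53), at least 10 counts in every library 20 (18 and 2, with 28 of the 43 tested), and no adjustment 1254 (491 and 763). Whether same-numbered libraries share a culture is not given in the sources used here. Deviations of same-numbered libraries correlated between -0.0698 and -0.456 for NO and CN of a genotype. For genotypes of a fraction they correlated between -0.0456 and -0.48. With 3 libraries in a group such correlations cannot decide whether the numbers are pairs. A replicate block by number left 30 called (7 lower), and a block for genotype and number 16 (14 higher, 2 lower). Leaving out each library gave 25 to 57 called, 17 to 38 higher and 4 to 27 lower. 3 alternatives were chosen after seeing the data: leaving out both HEK WT libraries numbered 3 gave 48, leaving out HEK WT NO replicate 3 and HEK UL1 KO NO replicate 1 gave 31 (7 lower), and voom without weights gave 33 (6 lower). The cause of these changes was not tested.

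The knockout effect within NO (1744 genes) came to 154 with total counts, 3353 with DESeq2, 23147 with weighted voom, 709 with the replicate block, 363 to 10222 with each library left out, 12536 without the HEK WT libraries numbered 3, 5737 without HEK WT NO replicate 3 and HEK UL1 KO NO replicate 1, and 7855 unadjusted. Within CN (4217 genes) it came to 842 with total counts, 2688 with total counts outside rRNA, 11109 with weighted voom, 2540 with the replicate block, 1453 to 7353 with each library left out, 6982 without the NO pair, and 10590 unadjusted. Of the 26 summed RNA kinds, weighted voom called 9 and 1 passed unadjusted, against 0.

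The differences whose sign turned had not been called by the edgeR test; with weighted voom, where 17 of 19 5S entries positive in edgeR gave way to 18 of 19 called lower, some were called in the new direction. With total counts the sign turned for 45S rRNA (0.0022), 18S rRNA (0.13), cytosolic ribosomal protein genes (0.0094), mitochondrial ribosomal protein genes (0.17), HNRNPUL1 (0.20), MALAT1 (0.062), NEAT1 (0.17), GAPDH (0.026) and FBL (0.0023). With total counts outside rRNA the sign turned for 45S rRNA (0.10), 18S rRNA (0.22), Y RNA (0.011), cytosolic ribosomal protein genes (0.089), mitochondrial ribosomal protein genes (0.26), HNRNPUL1 (0.31), MALAT1 (0.16), NEAT1 (0.24), GAPDH (0.13), FBL (0.095) and RPS15 (0.084). With at least 10 counts in every library the sign turned for 18S rRNA (0.0063), mitochondrial ribosomal protein genes (0.048), HNRNPUL1 (0.081) and NEAT1 (0.00054). With unweighted voom the sign turned for 18S rRNA (0.0049), mitochondrial ribosomal protein genes (0.0035), HNRNPUL1 (0.054) and NEAT1 (0.0071). With weighted voom the sign turned for 5.8S rRNA (-0.61), 5S rRNA (-0.98), rRNA pseudogenes (-0.57), scaRNA (-0.25), spliceosomal snRNA (-0.69), vault RNA (-0.50), nuclear tRNA (-0.52), HNRNPUL1 (0.064), MALAT1 (0.036) and RNA5-8SN1 (-0.30). Without the HEK WT libraries numbered 3 the sign turned for 5S rRNA (-0.29), rRNA pseudogenes (-0.35), scaRNA (-0.041), spliceosomal snRNA (-0.15), vault RNA (-0.10), nuclear tRNA (-0.041) and ZNF genes (-0.11). With TMM within fractions the sign turned for spliceosomal snRNA (-0.040), LINC genes (-0.025) and ZNF genes (-0.10). Without a filter the sign turned for spliceosomal snRNA (-0.068), LINC genes (-0.057) and ZNF genes (-0.12). With the replicate block the sign turned for mitochondrial ribosomal protein genes (0.0018) and HNRNPUL1 (0.024). With the block for genotype and replicate the sign turned for mitochondrial ribosomal protein genes (0.012), HNRNPUL1 (0.051) and NEAT1 (0.0047). With TMM without rRNA genes the sign turned for ZNF genes (-0.049). Without the NO pair the sign turned for ZNF genes (-0.11). With identical entries counted once the sign turned for HNRNPUL1 (0.00075). With each library left out the sign turned at least once for 18S rRNA (-0.44 to 0.16), 5S rRNA (-0.34 to 0.48), rRNA pseudogenes (-0.14 to 0.40), spliceosomal snRNA (-0.27 to 0.43), Y RNA (-0.63 to 0.22), vault RNA (-0.095 to 0.81), mitochondrial ribosomal protein genes (-0.22 to 0.17), ZNF genes (-0.11 to 0.17), HNRNPUL1 (-0.25 to 0.29), RPPH1 (-0.61 to 0.016), MALAT1 (-0.34 to 0.19), NEAT1 (-0.40 to 0.33), GAPDH (-0.47 to 0.090), FBL (-0.48 to 0.12) and RPS15 (-0.47 to 0.081). The spread between replicates limits the summed kinds, and counts of 0 to 5 in a group limit the rare genes.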
